A study of Mus musculus with 16 samples.

Results

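The mitosis and G2/M genes described here are 46 genes whose products take a cell from G2 through chromosome segregation to the cleavage of the daughter cells. They were picked by gene symbol, and all 46 were found, with 1 row each, among the 55450 genes of every table. Messenger RNA was measured in 16 libraries of mouse articular chondrocytes in primary culture, cartilage cells of the joint surface, in a study of cellular senescence. The 4 groups had 4 libraries each.

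Bleomycin, a drug that breaks DNA strands, was given at 50 µg/mL for 24 h, and these cells then spent 5 days in fresh medium. Before the drug, the bleomycin cultures alone were described as kept without serum for 4 h with hyaluronidase type I-S at 4 U/mL. The doxorubicin cultures stood in 50 nM of this topoisomerase II poison for 5 days and had their medium renewed every 48 h. The IL-1β group received interleukin-1 beta, an inflammatory cytokine, at 1 ng/mL for 24 h, as an acute stress control. The vehicle group received an equal volume of PBS, which the labels describe next to the 24 h cytokine treatment. All cells were grown in DMEM with 10% serum at 3% oxygen and 5% CO2, and the sources used here give no strain, sex, age or genotype. The labels give no other culture time for the vehicle, so time in culture may differ between the drug groups and vehicle. That, and the hyaluronidase step of the bleomycin cultures, cannot be told apart from the drug.

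Entry into mitosis is driven by cyclin-dependent kinase 1 bound to cyclins A and B. The spindle then forms, kinetochores attach the chromosomes to it, a checkpoint delays anaphase until every attachment is made, and the anaphase-promoting complex (APC/C), a ubiquitin ligase, marks cyclin B and securin for destruction. Most of these genes are transcribed periodically, peaking in G2 and mitosis, under the activating MuvB complexes with B-MYB and FOXM1, and are repressed in resting cells by the DREAM complex, which binds the cell cycle genes homology region (CHR) in their promoters. In cultured chondrocytes, transcripts of these genes are widely used as a sign of cycling cells. In RNA from bulk cultures, fewer cycling cells and less RNA per cell cannot be told apart.

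Markers of the labelled cell type were expressed: all 8 chondrocyte markers (Col2a1, Acan, Sox9, Col9a1, Col11a1, Comp, Matn3 and Hapln1) were at 1 FPKM or more in all 16 libraries. Their summed level was 8517 to 11158 FPKM in bleomycin, 8380 to 11030 in doxorubicin, 5205 to 5521 in IL-1β and 11562 to 15098 in vehicle libraries. Of 6 macrophage markers, Ptprc, Adgre1 and Csf1r stayed under 1 FPKM in every library, while Cd14, Cd68 and Lyz2 were above it in every library. The summed level of the list was 15.4 to 17.1 FPKM in bleomycin, 18.1 to 23.1 in doxorubicin, 28.6 to 34.3 in IL-1β and 7.87 to 10.2 in vehicle libraries. In the same order of groups, Cd14 was at 4.83 to 5.77, 4.63 to 5.93, 12.9 to 18.2 and 2.49 to 4.65 FPKM. Cd68 was at 3.64 to 5.25, 2.83 to 4.46, 6.18 to 9.34 and 1.02 to 2.06 FPKM. Lyz2 was at 5.04 to 7.27, 10.1 to 12.4, 5.71 to 7.38 and 2.34 to 4.06 FPKM. The 4 endothelial markers were all under 1 FPKM throughout. All 4 fibroblast markers were also at 1 FPKM or more in all 16 libraries. Their summed level was 1703 to 1790 FPKM in bleomycin, 1757 to 1849 in doxorubicin, 540 to 660 in IL-1β and 1507 to 1687 in vehicle libraries. The 3 osteoblast markers summed to 12.6 to 19.6 FPKM in bleomycin, 11.4 to 16.4 in doxorubicin, 12.4 to 17.1 in IL-1β and 13.8 to 19.6 in vehicle libraries. The part of these other markers in the results below was not tested. Depth, estimated from the steps between low FPKM values, was 15.9 M to 22.1 M fragments per library. Nothing in the labels says that the 4 libraries of a group came from separate animals or cultures, so the p-values measure the spread between these libraries, which may be technical.

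The promoters of this gene group carry the sequence elements that the cell cycle repressor and activator complexes are known to use, and 4 of them are shown: among the 2 genes of highest mean FPKM in each role, those with a whole CHR in the 150 bases before the start of transcription in their first RefSeq entry. RefSeq promoters (GRCm38.p6, 250 bases before to 50 bases after the start of transcription) were at hand for 36 of the 46 genes. A CHR (TTTGAA or TTCGAA, on either strand) was present in 29 of these 36 (80.6%), against 5854 of 27025 promoters of all genes (21.7%). A CCAAT box (CCAAT on either strand), the element bound by NF-Y, was present in 27 (75.0%), against 41.1% of all promoters. Both elements were present in 25 (69.4%), against 8.61% of all promoters. The 150 bases just upstream of the start follow, read 5′ to 3′ on the strand of the gene, with the CHR (TTTGAA, or TTCAAA where it lies on the other strand) and the CCAAT box (CCAAT, or ATTGG on the other strand) in capitals. Cdc20 lies at chr4:118437344-118437493 on the minus strand, Cdk1 at chr10:69352913-69353062 on the minus strand, Ncapd2 at chr6:125191587-125191736 on the minus strand and Ube2c at chr2:164769779-164769928 on the plus strand.
Cdc20: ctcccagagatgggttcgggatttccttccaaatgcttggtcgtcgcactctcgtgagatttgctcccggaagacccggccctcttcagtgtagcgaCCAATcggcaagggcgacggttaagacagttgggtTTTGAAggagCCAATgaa
Cdk1: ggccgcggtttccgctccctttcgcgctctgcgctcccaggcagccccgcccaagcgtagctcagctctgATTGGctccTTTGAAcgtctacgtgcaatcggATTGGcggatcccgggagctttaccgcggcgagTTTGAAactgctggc
Ncapd2: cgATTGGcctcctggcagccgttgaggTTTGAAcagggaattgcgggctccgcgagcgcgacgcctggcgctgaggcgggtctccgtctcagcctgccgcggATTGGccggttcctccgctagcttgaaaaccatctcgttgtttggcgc
Ube2c: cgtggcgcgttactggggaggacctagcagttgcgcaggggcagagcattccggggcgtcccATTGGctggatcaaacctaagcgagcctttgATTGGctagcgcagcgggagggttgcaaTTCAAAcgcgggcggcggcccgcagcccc
In Cdc20 the CHR began 18 bases before the start, with CCAAT boxes on both sides of it, and in Ube2c it lay on the other strand, 29 bases before the start. Cdk1 held CHR letters at 71 and at 15 bases before the start. These starts are those of RefSeq, and the GENCODE gene bounds begin upstream of them in all 4 genes. By those bounds, which begin at 164769898 in Ube2c and at 69352938 in Cdk1, the Ube2c CHR and the nearer Cdk1 CHR lie within the gene. Most of the Ncapd2 stretch does too. The CHR letters were not found in the windows of Nuf2, Nusap1, Cenpe, Mad2l1, Pttg1, Birc5 and Ccnb1. A match of letters is a description of the sequence and not evidence of binding.

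Nearly the whole group was lower in both drug groups than in vehicle. In bleomycin libraries 45 of the 46 genes were called lower than in vehicle libraries (limma on log2(FPKM + 1), Benjamini-Hochberg adjusted p under 0.05 over 12976 genes), against 19.0% of all genes tested called lower, and 0 were called higher, against 27.9%. In doxorubicin libraries all 46 were called lower than in vehicle, against 22.8% of all genes, and 0 higher, against 25.4%. In IL-1β libraries 29 were called lower than in vehicle, against 18.4% of all genes, and 0 higher, against 24.5%. At an unadjusted p under 0.05 in the limma fit, the genes higher than vehicle numbered 0 in bleomycin, 0 in doxorubicin and 1 in IL-1β (Kif20b). The median log2 difference of the 46 genes from vehicle was -0.76 in bleomycin, -1.28 in doxorubicin and -0.30 in IL-1β, and that of all genes tested was 0.062 in bleomycin, 0.021 in doxorubicin and 0.033 in IL-1β. Under doxorubicin 35 of the 46 were called and lower by at least 2-fold on this scale, against 1.87% of all genes tested, and under bleomycin 5 were, against 0.840%. This scale understates the folds of low genes. By ratios of mean FPKM more of the 46 reached 2-fold under each drug, such as Foxm1 (2.1-fold) in bleomycin and Kif20a (2.06-fold) in doxorubicin.

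The drug libraries stood apart in single-library levels. The median FPKM of the 46 genes was 9.24, 8.22, 8.36 and 8.32 in bleomycin libraries 1 to 4, 6.19, 5.88, 5.54 and 5.81 in doxorubicin libraries, 14.3, 12.6, 12.5 and 12.8 in IL-1β libraries and 16.9, 17.6, 13.6 and 15.7 in vehicle libraries. Both drug groups lay below every IL-1β and vehicle library, doxorubicin lowest, while the lowest vehicle library, number 3, lay below the highest IL-1β library. Gene by gene, all 4 bleomycin libraries were below all 4 vehicle libraries for 39 of 46 genes (17.5% of all genes tested). All doxorubicin libraries were below all vehicle libraries for 44 genes (20.5% of all genes tested), and all IL-1β libraries were below all vehicle libraries for 20 (16.5%). The group means ran from doxorubicin through bleomycin and IL-1β up to vehicle for 38 of 46 genes, against 8.37% of all genes tested, and for 13 of them, against 0.331% of all genes, no library of one group overlapped the next. With libraries scaled to the same FPKM sum, which moves IL-1β down (a check added after the data were seen), these counts were 34, against 5.42%, and 4, against 0.262%. Overlaps of IL-1β libraries with other groups are described below on the deposited scale.

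**Figure D1:**
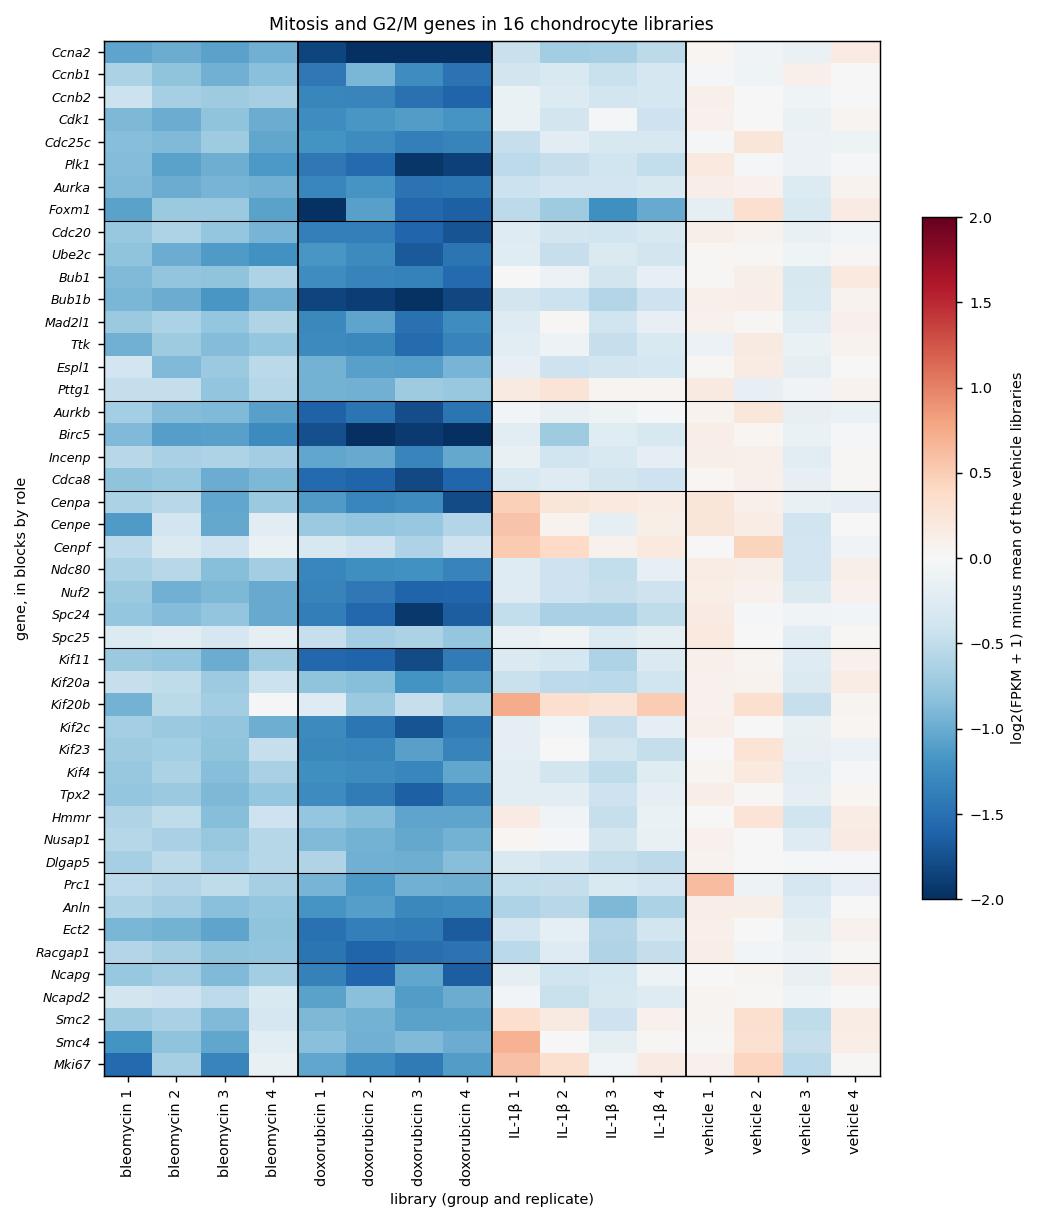
Each row is a gene, in blocks by role, and each column a library; colour gives log2(FPKM + 1) minus the mean of the 4 vehicle libraries, blue for lower and red for higher. The doxorubicin columns are the darkest blue, the bleomycin columns are blue for 45 genes called lower, and the IL-1β columns are pale, with red cells in genes such as Cenpa, Cenpf, Kif20b and Mki67, and on a scale of equal FPKM sums Cenpf and Kif20b stay above vehicle while Cenpa and Mki67 do not.

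All 8 genes of mitotic entry were called lower in bleomycin and in doxorubicin than in vehicle. Ccna2 (cyclin A2, which partners CDK2 and CDK1; ENSMUSG00000027715.9, chr3:36564865-36572150, minus strand, GRCm38) was at 15, 15.8, 14.9 and 16 FPKM in bleomycin libraries, 8.36, 6.78, 7.13 and 7.39 in doxorubicin, 23.3, 19.6, 19.9 and 22.2 in IL-1β and 33.1, 30.6, 29.4 and 36.3 in vehicle. The groups did not overlap. The mean was 2.10-fold lower in bleomycin (log2 difference -1.02 ± 0.077, SE; adjusted p = 3.51e-08) and 4.36-fold lower in doxorubicin (-1.99 ± 0.077, adjusted p = 1.99e-11) than in vehicle. Cdk1 (the catalytic kinase of mitotic entry; ENSMUSG00000019942.13, chr10:69335146-69352938, minus strand, GRCm38) was at 19.4, 18, 20.6 and 18 FPKM in bleomycin libraries, 15, 15.8, 16.4 and 15.7 in doxorubicin, 33.5, 28.4, 36.4 and 27.4 in IL-1β and 39, 36.9, 33.6 and 38.1 in vehicle. Every drug library was lower than every vehicle library, and doxorubicin lay just under bleomycin without overlap. Its mean was 1.94-fold lower in bleomycin (-0.92 ± 0.081, adjusted p = 1.89e-07) and 2.35-fold lower in doxorubicin (-1.18 ± 0.081, adjusted p = 8.01e-09). Ccnb1, whose product cyclin B1 binds CDK1, was at 15.3, 13.4, 11.9 and 13.2 FPKM in bleomycin libraries, 8.38, 12.4, 9.65 and 8.08 in doxorubicin, 18.6, 19.4, 17.5 and 18.9 in IL-1β and 23.9, 22.9, 26.2 and 24.1 in vehicle. Both drug groups were below all vehicle libraries, and doxorubicin library 2 reached into the bleomycin range. Ccnb1 fell 1.81-fold in bleomycin (adjusted p = 8.52e-06) and 2.53-fold in doxorubicin (adjusted p = 4.91e-08). Foxm1, the forkhead transcription factor that activates many G2/M genes, was at 3.79, 4.99, 5.0 and 3.77 FPKM in bleomycin libraries, 1.57, 3.75, 2.40 and 2.26 in doxorubicin, 6.03, 5.13, 3.28 and 4.03 in IL-1β and 7.86, 11.5, 7.19 and 10.3 in vehicle. Every treated library was below every vehicle library, and its values scattered more than those of its neighbours. Foxm1 fell 2.10-fold in bleomycin (-0.91 ± 0.19, adjusted p = 0.000935) and 3.70-fold in doxorubicin (-1.56 ± 0.19, adjusted p = 4.74e-06). For the others, namely Ccnb2 (cyclin B2), Cdc25c (a phosphatase that activates CDK1), Plk1 (Polo-like kinase 1) and Aurka (Aurora kinase A, at the spindle poles), log2 differences from vehicle were -1.01 (Plk1) to -0.62 (Ccnb2) in bleomycin and -1.70 (Plk1) to -1.29 (Cdc25c) in doxorubicin.

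The checkpoint and anaphase group of 8 genes was likewise called lower in full under both drugs. Ube2c, which encodes the ubiquitin-conjugating enzyme of the APC/C and had the highest mean FPKM of the 46 genes (ENSMUSG00000001403.13, chr2:164769898-164778822, plus strand, GRCm38), was at 31.8, 27.8, 25.1 and 23.7 FPKM in bleomycin libraries, 24.6, 22.7, 17 and 19.9 in doxorubicin, 47.6, 40.6, 46 and 43.7 in IL-1β and 58, 57.5, 53.3 and 57.2 in vehicle. Its vehicle and IL-1β libraries lay above all drug libraries, while the highest doxorubicin library exceeded the lowest bleomycin library. Ube2c fell 2.08-fold in bleomycin (-1.04 ± 0.10, adjusted p = 5.75e-07) and 2.68-fold in doxorubicin (-1.40 ± 0.10, adjusted p = 1.49e-08). Cdc20, the mitotic coactivator of the APC/C, was at 23.3, 25.9, 23.1 and 20.5 FPKM in bleomycin libraries, 15, 14.9, 12.7 and 11.4 in doxorubicin, 33.5, 31, 30.1 and 31.9 in IL-1β and 43.4, 42.4, 36.3 and 38.8 in vehicle. No group overlapped another. Cdc20 fell 1.73-fold in bleomycin (-0.77 ± 0.089, adjusted p = 3.41e-06) and 2.98-fold in doxorubicin (-1.51 ± 0.089, adjusted p = 1.38e-09). Bub1b, which encodes the checkpoint protein BUBR1, was at 8.09, 7.60, 6.64 and 7.74 FPKM in bleomycin libraries, 3.80, 3.60, 3.31 and 3.84 in doxorubicin, 12.2, 11.6, 10.4 and 11.8 in IL-1β and 17.3, 17.7, 12.8 and 16.9 in vehicle, without overlap between groups. It had the greatest fold difference of mean FPKM under doxorubicin, 4.45-fold lower (-1.88 ± 0.091, adjusted p = 2.10e-10). The checkpoint kinases Bub1 and Ttk (MPS1), the checkpoint protein Mad2l1 (MAD2), the separase gene Espl1 and the securin gene Pttg1 gave log2 differences of -0.83 (Ttk) to -0.58 (Pttg1) in bleomycin and -1.37 (Bub1) to -0.84 (Pttg1) in doxorubicin.

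The chromosomal passenger complex corrects faulty attachments and steers cytokinesis, and all 4 of its genes were called lower under both drugs. Birc5, which encodes its survivin subunit (ENSMUSG00000017716.15, chr11:117849251-117855743, plus strand, GRCm38), was at 26.3, 22.4, 22.7 and 19.7 FPKM in bleomycin libraries, 13.8, 10.1, 12.3 and 10.5 in doxorubicin, 41.8, 29.6, 41.5 and 39.3 in IL-1β and 54.1, 50.6, 45 and 47.9 in vehicle. The groups did not overlap, and Birc5 had the most negative log2 difference of the 46 genes under each drug. It fell 2.17-fold in bleomycin (-1.09 ± 0.12, adjusted p = 1.60e-06) and 4.23-fold in doxorubicin (-2.0 ± 0.12, adjusted p = 1.36e-09). Cdca8, which encodes the borealin subunit, was at 12.6, 13, 11 and 11.8 FPKM in bleomycin libraries, 7.09, 6.82, 5.79 and 6.91 in doxorubicin, 18.3, 18.9, 17.5 and 16.9 in IL-1β and 23.4, 24.5, 20.3 and 23.1 in vehicle. Its groups also stood apart from each other without overlap. It fell 1.89-fold in bleomycin (adjusted p = 1.38e-07) and 3.43-fold in doxorubicin (adjusted p = 8.75e-11). Aurkb, the kinase of the complex, gave log2 differences of -0.88 ± 0.10 in bleomycin and -1.57 ± 0.10 in doxorubicin, and Incenp, its scaffold, -0.63 ± 0.089 and -1.10 ± 0.089.

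Among the role groups, centromere and kinetochore genes had the widest range of log2 differences in each drug-minus-vehicle comparison. Of 7, 6 were called lower in bleomycin and 7 in doxorubicin. Cenpa, the histone H3 variant that marks centromeres (ENSMUSG00000029177.9, chr5:30666777-30674830, plus strand, GRCm38), was at 22.6, 23.9, 16.7 and 20.8 FPKM in bleomycin libraries, 15.7, 13.8, 14.2 and 9.59 in doxorubicin, 50, 42, 40.7 and 39.3 in IL-1β and 42.2, 38.1, 31.9 and 31 in vehicle. The drug libraries were all below the IL-1β and vehicle libraries, and 3 of the 4 IL-1β values lay within the vehicle range while library 1 exceeded it. Cenpa fell 1.70-fold in bleomycin (-0.74 ± 0.14, adjusted p = 0.000438) and 2.69-fold in doxorubicin (-1.37 ± 0.14, adjusted p = 7.83e-07). Spc25, a subunit of the NDC80 complex that holds microtubules, was at 13.7, 14.3, 13.1 and 14.7 FPKM in bleomycin libraries, 12, 10.1, 10.5 and 9.44 in doxorubicin, 15.1, 15.7, 13.7 and 14.8 in IL-1β and 19.5, 16.8, 14.3 and 17.2 in vehicle. Its doxorubicin libraries lay below all others, while bleomycin and vehicle overlapped, and its bleomycin difference was the smallest of the 46 genes to be called (-0.26 ± 0.085, adjusted p = 0.0207). That call ended without bleomycin library 3 (-0.23, adjusted p = 0.0600) or without vehicle library 1 (-0.19, adjusted p = 0.0786). Cenpf, a large kinetochore protein, was listed at 0.262, 0.481, 0.359 and 0.662 FPKM in bleomycin libraries, 0.446, 0.366, 0.189 and 0.358 in doxorubicin, 1.62, 1.38, 0.932 and 1.08 in IL-1β and 0.811, 1.47, 0.396 and 0.737 in vehicle. It had under 1 FPKM in all drug libraries and in 3 of 4 vehicle libraries, and it entered the test through 3 IL-1β libraries and 1 vehicle library. Cenpf did not pass the test in bleomycin (-0.34 ± 0.15, adjusted p = 0.0782; without vehicle library 3, -0.47, adjusted p = 0.0168) and was called in doxorubicin (-0.44 ± 0.15, adjusted p = 0.0246). The doxorubicin call ended without doxorubicin library 3 (-0.39, adjusted p = 0.0698) or vehicle library 2 (-0.29, adjusted p = 0.0936). Among Ndc80, Nuf2 and Spc24, the other NDC80 complex genes, log2 differences ran from -0.90 (Nuf2) to -0.68 (Ndc80) in bleomycin and from -1.63 (Spc24) to -1.27 (Ndc80) in doxorubicin, and the kinetochore motor gene Cenpe gave -0.69 ± 0.20 and -0.72 ± 0.20.

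**Figure D2:**
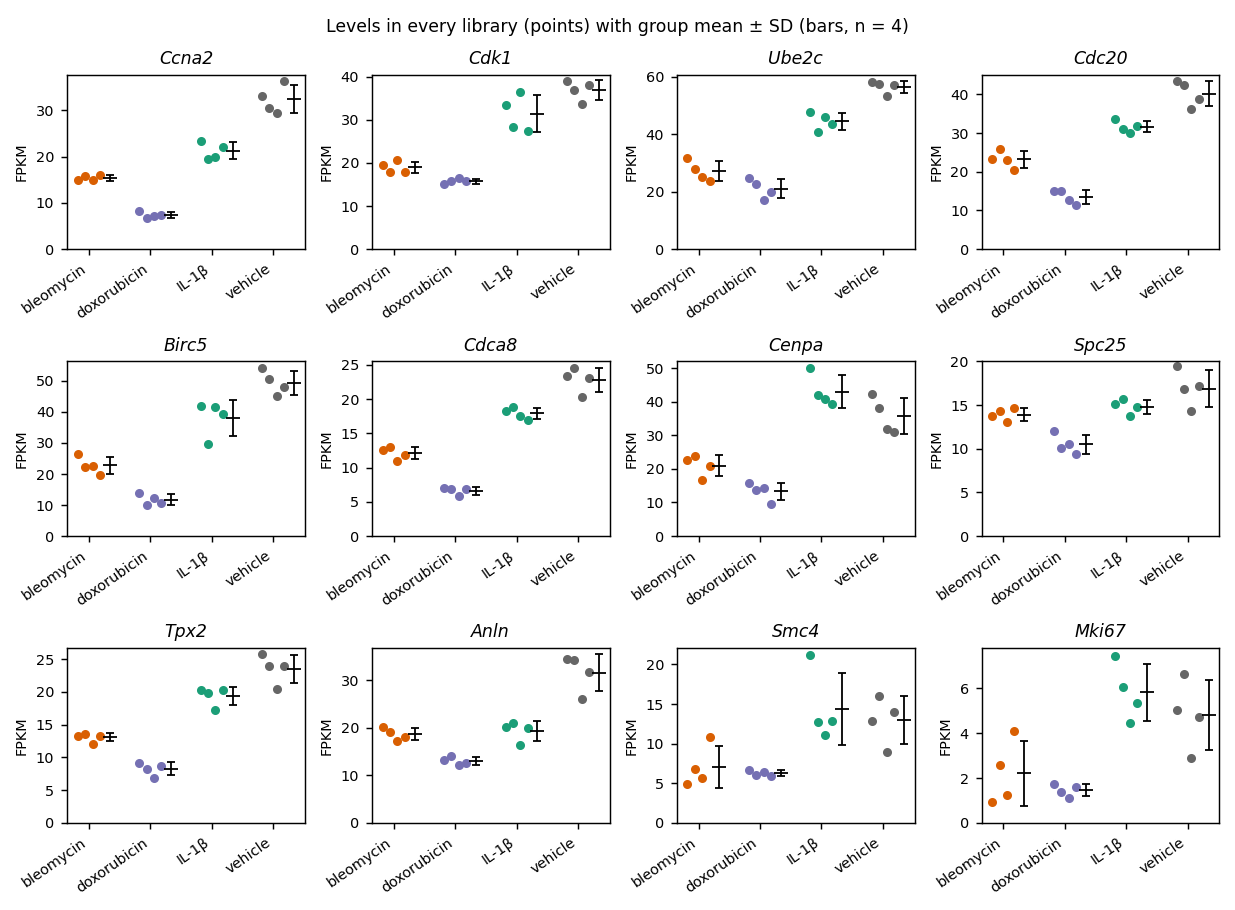
Each panel shows the FPKM of 1 gene in every library, as points, with the group mean and SD beside them (n = 4 libraries), and each vertical axis starts at 0. Doxorubicin points lie lowest and bleomycin points next in Ccna2, Birc5 and Cdc20, whereas Smc4 and Mki67 have wide bleomycin groups that reach the vehicle range.

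All 10 spindle and motor genes were called lower in each drug group. Kif20a, the kinesin MKLP2 that carries the passenger complex to the spindle midzone, was at 18.7, 18, 15.4 and 19 FPKM in bleomycin libraries, 14.5, 14, 10.8 and 11.6 in doxorubicin, 18.9, 17.8, 17.5 and 19.4 in IL-1β and 27.7, 27.3, 21 and 28.8 in vehicle. Doxorubicin libraries were lowest without overlap, and bleomycin and IL-1β libraries overlapped each other below vehicle. Kif20a fell 1.47-fold in bleomycin (-0.53 ± 0.10, adjusted p = 0.000580) and 2.06-fold in doxorubicin (-0.99 ± 0.10, adjusted p = 1.02e-06). Tpx2, the spindle assembly factor that activates Aurora A, was at 13.3, 13.6, 12.1 and 13.3 FPKM in bleomycin libraries, 9.21, 8.27, 6.89 and 8.70 in doxorubicin, 20.2, 19.8, 17.3 and 20.3 in IL-1β and 25.7, 23.9, 20.5 and 24 in vehicle. The groups stood clear of each other. Tpx2 fell 1.80-fold in bleomycin (-0.80 ± 0.085, adjusted p = 1.44e-06) and 2.84-fold in doxorubicin (-1.41 ± 0.085, adjusted p = 1.86e-09). Kif20b, a kinesin of late cytokinesis, was low throughout, at 0.366, 0.821, 0.628 and 1.59 FPKM in bleomycin libraries, 1.20, 0.580, 0.921 and 0.638 in doxorubicin, 3.43, 2.30, 2.17 and 2.75 in IL-1β and 1.79, 2.31, 0.914 and 1.74 in vehicle. IL-1β libraries 1 and 4 were above all vehicle libraries, and bleomycin library 4 and doxorubicin libraries 1 and 3 exceeded vehicle library 3. Its bleomycin call (-0.55 ± 0.19, adjusted p = 0.0287) ended in 6 of the 16 fits that left out 1 library (bleomycin 1, 2 or 3 or vehicle 1, 2 or 4; log2 difference -0.56 to -0.42, adjusted p 0.0501 to 0.101). Its doxorubicin call (-0.54 ± 0.19, adjusted p = 0.0319) ended in 5 of them (doxorubicin 2 or 4 or vehicle 1, 2 or 4; -0.52 to -0.43, adjusted p 0.0647 to 0.103). Among the rest, Kif11 (the spindle-separating kinesin Eg5) had the most negative log2 differences, -0.80 ± 0.11 in bleomycin and -1.59 ± 0.11 in doxorubicin. Kif2c, Kif23, Kif4, Hmmr, Nusap1 and Dlgap5, which encode further kinesins and microtubule-binding proteins, gave -0.80 (Kif2c) to -0.60 (Hmmr) in bleomycin and -1.46 (Kif2c) to -0.84 (Dlgap5) in doxorubicin.

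The 4 cytokinesis genes were called lower in both drug groups. Anln, the actin-binding scaffold anillin of the cleavage furrow, was at 20.1, 19, 17.2 and 18 FPKM in bleomycin libraries, 13.3, 14.1, 12.2 and 12.6 in doxorubicin, 20.2, 21, 16.3 and 20 in IL-1β and 34.5, 34.2, 26 and 31.7 in vehicle. Every vehicle library exceeded every treated library, and the bleomycin and IL-1β ranges overlapped. Anln fell 1.70-fold in bleomycin (-0.73 ± 0.092, adjusted p = 9.28e-06) and 2.42-fold in doxorubicin (-1.21 ± 0.092, adjusted p = 2.68e-08). Prc1, which bundles the antiparallel microtubules of the midzone, was at 16.4, 15.7, 16.6 and 14.7 FPKM in bleomycin libraries, 12.1, 10.3, 11.9 and 11.7 in doxorubicin, 16.7, 16.9, 19.2 and 18.2 in IL-1β and 37.2, 22.2, 18.8 and 21.2 in vehicle. Vehicle library 1 was far above the other vehicle libraries, which lay close to the IL-1β libraries. Prc1 fell 1.57-fold in bleomycin (-0.57 ± 0.14, adjusted p = 0.00394) and 2.16-fold in doxorubicin (-1.0 ± 0.14, adjusted p = 2.68e-05), and without vehicle library 1 the log2 differences were -0.37 in bleomycin (adjusted p = 0.00136) and -0.80 in doxorubicin (adjusted p = 8.99e-07). Ect2 (the exchange factor that activates RhoA) and Racgap1 (its centralspindlin partner) gave log2 differences of -0.93 ± 0.094 and -0.71 ± 0.077 in bleomycin and -1.48 ± 0.094 and -1.51 ± 0.077 in doxorubicin.

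The condensin and chromosome surface genes, 5 in all, were called lower under both drugs too. Ncapd2, a regulatory subunit of condensin I, was at 13.3, 12.9, 11.8 and 13.9 FPKM in bleomycin libraries, 7.78, 9.30, 7.52 and 8.23 in doxorubicin, 16.7, 12.5, 13.8 and 14.4 in IL-1β and 18.1, 17.7, 16.4 and 17.6 in vehicle. Doxorubicin was lowest without overlap, and the bleomycin libraries were below all vehicle libraries. Ncapd2 fell 1.34-fold in bleomycin (-0.40 ± 0.082, adjusted p = 0.000769) and 2.13-fold in doxorubicin (-1.0 ± 0.082, adjusted p = 5.45e-08). Smc4, a core ATPase subunit of both condensins, was at 4.95, 6.80, 5.66 and 10.8 FPKM in bleomycin libraries, 6.71, 6.0, 6.45 and 5.90 in doxorubicin, 21.2, 12.7, 11.1 and 12.9 in IL-1β and 12.9, 16, 8.92 and 14 in vehicle. Bleomycin library 4 was well above the other bleomycin libraries and above vehicle library 3, and IL-1β library 1 was the highest of all. Smc4 fell 1.84-fold in bleomycin (-0.82 ± 0.21, adjusted p = 0.00499) and 2.07-fold in doxorubicin (-0.92 ± 0.21, adjusted p = 0.00201). Mki67, the gene of the Ki-67 antigen that coats mitotic chromosomes, was at 0.926, 2.57, 1.26 and 4.09 FPKM in bleomycin libraries, 1.75, 1.37, 1.13 and 1.61 in doxorubicin, 7.45, 6.04, 4.46 and 5.33 in IL-1β and 5.03, 6.63, 2.88 and 4.73 in vehicle. Bleomycin libraries 2 and 4 were higher than bleomycin libraries 1 and 3, library 4 reached the vehicle range, and all doxorubicin libraries lay below all vehicle libraries. Mki67 gave log2 differences of -0.92 ± 0.26 in bleomycin and -1.20 ± 0.26 in doxorubicin, both called. Smc2, the partner of Smc4, was at 4.51, 4.73, 3.86 and 6.12 FPKM in bleomycin libraries, 3.83, 3.70, 3.30 and 3.31 in doxorubicin, 10.4, 9.18, 5.76 and 8.51 in IL-1β and 8.33, 10.2, 5.34 and 8.93 in vehicle. Bleomycin library 4 overlapped vehicle library 3. The log2 differences of Smc2 were -0.65 ± 0.17 in bleomycin and -0.99 ± 0.17 in doxorubicin, and those of Ncapg, another condensin I subunit, -0.76 ± 0.12 and -1.40 ± 0.12.

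**Figure D3:**
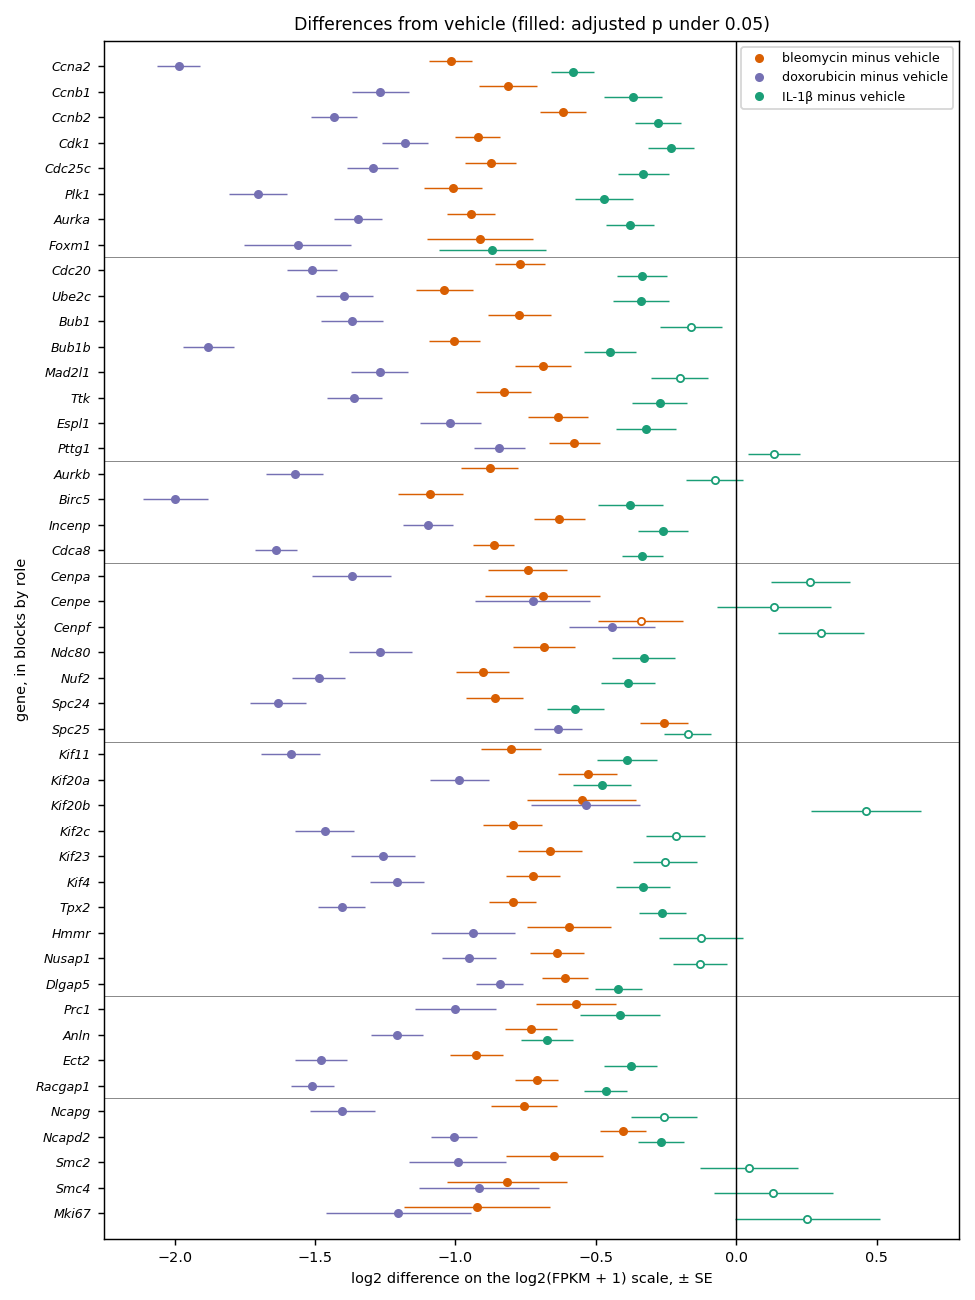
Points give the log2 difference of each gene from vehicle on the log2(FPKM + 1) scale, with SE, for bleomycin, doxorubicin and IL-1β; filled points passed adjusted p under 0.05. Doxorubicin points run from -2.0 (Birc5) to -0.44 (Cenpf), bleomycin points from -1.09 (Birc5) to -0.26 (Spc25), and IL-1β points from -0.87 (Foxm1) to 0.46 (Kif20b), with IL-1β points above 0 for 8 genes, of which 2 stayed above 0 when libraries were scaled to the same FPKM sum.

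Most of these genes were lower in doxorubicin than in bleomycin. In doxorubicin libraries 35 of 46 genes were called lower than in bleomycin libraries, against 5.85% of all genes tested, and 0 were called higher (0 also at an unadjusted p under 0.05 in limma), against 4.18%. The median log2 difference was -0.54, against -0.045 for all genes. All doxorubicin libraries were below all bleomycin libraries for 36 genes, against 11.6% of all genes tested. These differences were measured at 1 dose of each drug, with exposures of different length, and the drugs' doses are in different units.

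The largest difference between the drugs was in Ccna2, whose mean was 2.08-fold lower in doxorubicin than in bleomycin (log2 difference -0.97 ± 0.077, adjusted p = 1.81e-06). Bub1b (2.07-fold, adjusted p = 2.11e-05), Kif11 (1.98-fold, adjusted p = 0.000234), Birc5 (1.95-fold, adjusted p = 0.000151) and Spc24 (1.95-fold, adjusted p = 0.000169) followed by fold of mean FPKM. Passenger complex genes were all called, with log2 differences from -0.91 (Birc5) to -0.47 (Incenp). Of the cyclin and entry kinase genes 7 of 8 were called, and Cdk1 was not (-0.26 ± 0.081, adjusted p = 0.0538), although its doxorubicin libraries were all below its bleomycin libraries. Its adjusted p came to 0.0271, 0.0386 and 0.0496 in the fits without IL-1β library 3, IL-1β library 4 and vehicle library 3, 0.0391 with libraries scaled to the same FPKM sum and 0.0289 with only the 2 drug groups in the fit.

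The genes not called between the drugs were Cdk1, Pttg1, Cenpe, Cenpf, Kif20b, Hmmr, Dlgap5, Prc1, Smc2, Smc4 and Mki67. Pttg1 was at 15.5, 15.5, 12.3 and 14.5 FPKM in bleomycin libraries, 10.9, 10.8, 13 and 12.6 in doxorubicin, 24.9, 26.5, 22.8 and 22.9 in IL-1β and 25, 19.5, 20.8 and 23 in vehicle. Its drug libraries were below all others and overlapped each other only at bleomycin library 3 (doxorubicin minus bleomycin -0.27 ± 0.091, adjusted p = 0.0768). Dlgap5, a spindle protein gene, was at 5.78, 6.47, 5.63 and 6.25 FPKM in bleomycin libraries, 6.10, 4.53, 4.47 and 4.94 in doxorubicin, 7.67, 7.28, 6.73 and 6.44 in IL-1β and 10.3, 9.81, 9.39 and 9.44 in vehicle, and doxorubicin library 1 lay within the bleomycin range (-0.23 ± 0.083, adjusted p = 0.0890). Hmmr, the gene of a hyaluronan and microtubule-binding protein, was at 4.91, 5.31, 3.96 and 5.70 FPKM in bleomycin libraries, 4.25, 3.91, 3.31 and 3.32 in doxorubicin, 9.08, 7.51, 5.50 and 7.14 in IL-1β and 7.87, 9.86, 5.77 and 8.89 in vehicle. Bleomycin library 3 lay within its doxorubicin range (-0.34 ± 0.15, adjusted p = 0.170). Cenpe was at 0.399, 1.35, 0.508 and 1.63 FPKM in bleomycin libraries, 0.825, 0.764, 0.808 and 1.03 in doxorubicin, 3.54, 2.20, 1.66 and 2.31 in IL-1β and 2.62, 2.38, 1.32 and 2.09 in vehicle, with bleomycin libraries 1 and 3 below and 2 and 4 above all doxorubicin libraries. Kif20b had means that were nearly equal (log2 difference 0.015 ± 0.19, adjusted p = 0.976), and Cenpe gave -0.035 ± 0.20. For Mki67 the difference was -0.28 ± 0.26 (adjusted p = 0.555), an estimate with a wide error. With only the drug groups in the fit, Prc1 was called (adjusted p = 0.00620), and the calls of Ccnb1 (adjusted p = 0.0539), Foxm1 (0.0511), Espl1 (0.0742) and Ube2c (0.105) ended. The calls of 4 genes ended when 1 library was left out. Nusap1 lost its call in 12 of 16 fits (any bleomycin or doxorubicin library, IL-1β 2 or 4, or vehicle 1 or 2), with log2 differences of -0.35 to -0.29 and adjusted p up to 0.119. Foxm1 lost it in 6 fits (bleomycin 1, 2 or 3, or doxorubicin 1, 3 or 4; -0.70 to -0.51, adjusted p up to 0.116). Espl1 lost it in 4 (bleomycin 1 or 4, or doxorubicin 2 or 3; -0.36 to -0.30, adjusted p up to 0.108), and Ube2c in 4 (bleomycin 1 or 2, or doxorubicin 3 or 4; -0.34 to -0.26, adjusted p up to 0.118). Prc1 was called (adjusted p = 0.00147, with the same log2 difference) in the fit without vehicle library 1, and also without vehicle library 3 (0.0487). Dlgap5 was called without doxorubicin library 1 (-0.32, adjusted p = 0.0150) and Pttg1 without bleomycin library 3 (-0.34, adjusted p = 0.0330).

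**Figure D4:**
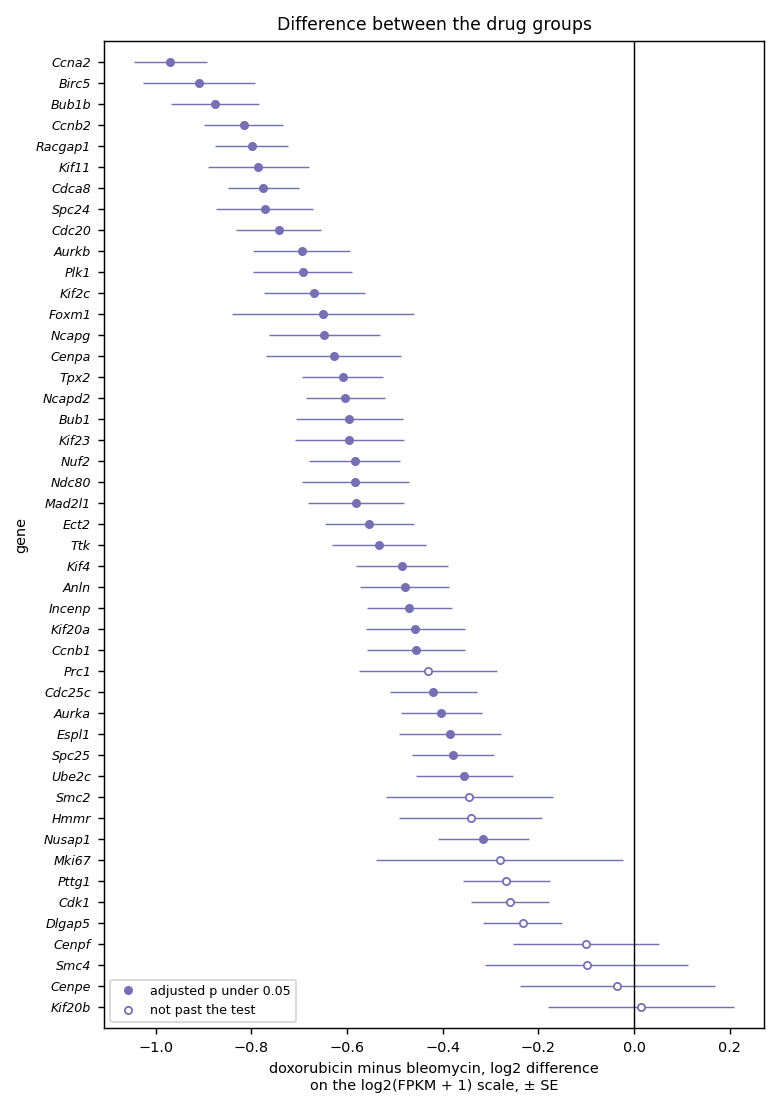
Points give the doxorubicin minus bleomycin log2 difference of each gene on the log2(FPKM + 1) scale, with SE, sorted from the most negative at the top; filled points passed adjusted p under 0.05. Ccna2 and Birc5 lead at -0.97 and -0.91, and Cenpf, Smc4, Cenpe and Kif20b at the foot lie near 0 with wide errors.

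IL-1β gave smaller and less uniform differences. The 29 genes called lower than in vehicle comprised all 8 of mitotic entry, 5 of 8 of checkpoint and anaphase, 3 of 4 of the passenger complex, 3 of 7 of centromere and kinetochore, 5 of 10 of spindle and motors, all 4 of cytokinesis and 1 of 5 of condensin and chromosome surface. Foxm1 had the most negative difference (-0.87 ± 0.19, adjusted p = 0.00146), a mean 2.0-fold lower than in vehicle. Anln (-0.67 ± 0.092, adjusted p = 1.84e-05), Ccna2 (-0.58 ± 0.077, adjusted p = 1.22e-05) and Spc24 (-0.57 ± 0.10, adjusted p = 0.000226) were next. Their IL-1β libraries lay below all their vehicle libraries.

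Several genes were near or above vehicle in IL-1β, and none of these passed the test. The IL-1β mean was above the vehicle mean for 8 of 46 genes, Kif20b (0.46 ± 0.19, adjusted p = 0.0677), Cenpf (0.30 ± 0.15), Cenpa (0.26 ± 0.14, adjusted p = 0.149), Mki67 (0.25 ± 0.26, adjusted p = 0.463), Cenpe, Pttg1, Smc4 and Smc2, whereas only 2 stayed above when libraries were scaled to the same FPKM sum. Smc2 had the smallest difference (0.045 ± 0.17, adjusted p = 0.859), and Aurkb was also close to vehicle (-0.077 ± 0.10, adjusted p = 0.577). Kif20b was called higher without bleomycin library 4 (adjusted p = 0.0362) or vehicle library 2 (0.57, adjusted p = 0.0370), and Cenpf without vehicle library 2 (0.45, adjusted p = 0.0157). Cenpf reached 1 FPKM only in IL-1β libraries and in vehicle library 2. The filter counted all 16 libraries also in the fit without the latter, so Cenpf stayed in the test. The libraries of that fit in which it reached 1 FPKM were all IL-1β libraries, so that call does not count as support for a higher level.

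FPKM sums were 521294 to 559190 in IL-1β libraries and 405159 to 423830 in the other 12, so the IL-1β comparison depends on the scale. With libraries scaled to the same FPKM sum, 39 of the 46 genes were called lower and the members' median was -0.62, but the median of all genes moved to -0.28 as well, and 52.4% of all genes were called lower and 10.0% higher. The members' median minus that of all genes was -0.33 as deposited and -0.35 on that scale. Median-of-ratios scaling called 34 genes lower and quantile normalization 33, and none of the 29 lost its call under any of the 3 scalings.

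Leaving out 1 library moved the number called lower in IL-1β between 24 and 32. Calls ended for Cdk1 (5 fits, without IL-1β 2 or 4 or vehicle 1, 2 or 4, log2 difference -0.23 to -0.17), for Incenp and Ndc80 (5 fits each, without IL-1β 2 or 3 or vehicle 1, 2 or 4, -0.26 to -0.22 and -0.30 to -0.27) and for Espl1 (4 fits, without IL-1β 2 or 3 or vehicle 1 or 2, -0.31 to -0.27). They also ended for Ttk (4 fits, without IL-1β 3 or 4 or vehicle 2 or 4, -0.26 to -0.21), Prc1 (2 fits, without IL-1β 1 or 2, -0.39; without vehicle 1 it was -0.21, still called at adjusted p = 0.0414) and Tpx2 (2 fits, without IL-1β 3 or vehicle 1, -0.22 to -0.21). Without IL-1β library 2, Birc5 (-0.26, adjusted p = 0.0565) and Ncapd2 (-0.21, adjusted p = 0.0524) lost theirs.

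Set against IL-1β rather than vehicle, the mean of the drug groups was still low, while bleomycin alone was not tested against IL-1β. Against vehicle, bleomycin and IL-1β lay close for Anln (-0.73 and -0.67), Kif20a (-0.53 and -0.48) and Spc25 (-0.26 and -0.17). Doxorubicin was lower for these genes (-1.21, -0.99 and -0.64). The mean of bleomycin and doxorubicin was called lower than IL-1β for 45 of 46 genes, against 29.5% of all genes tested, and higher for 0 (0 also at an unadjusted p under 0.05 in limma), against 28.5%. The median log2 difference was -0.80, against -0.0033 for all genes. Cenpa (-1.32 ± 0.12, adjusted p = 1.34e-07) and Mki67 (-1.32 ± 0.22, adjusted p = 0.000100) had the most negative differences, and Spc25 the smallest (-0.27 ± 0.074, adjusted p = 0.00473). Foxm1 did not pass (-0.37 ± 0.16, adjusted p = 0.0659), and its IL-1β mean was also low, though it passed without doxorubicin library 2 (-0.45, adjusted p = 0.0186) or IL-1β library 3 (-0.49, adjusted p = 0.0256). The call of Prc1 ended without IL-1β library 3 (-0.33, adjusted p = 0.0561). All bleomycin libraries were below all IL-1β libraries for 35 genes (22.1% of all genes tested), and all doxorubicin libraries for 45 (25.5%). Cenpf is among the genes of these counts and of the calls, though it entered the test through IL-1β libraries and vehicle library 2 only. On the scale of equal FPKM sums the median was -0.46, against 0.31 for all genes, 39 genes were called lower, and Spc25, Kif20a, Dlgap5 and Anln changed sign without passing the test. Bleomycin and doxorubicin share the vehicle libraries with IL-1β in the comparisons above, so their differences from vehicle are given side by side only.

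Genes of the group differed in their spread among libraries of the same group. The SD of log2(FPKM + 1) within groups was 0.41 for Mki67, 0.34 for Smc4, 0.32 for Cenpe, 0.30 for Kif20b, 0.30 for Foxm1 and 0.27 for Smc2, with Hmmr (0.23) and Prc1 (0.22) next, 0.10 to 0.23 for the other 40 and a median of 0.14 for all genes tested. For the 6 genes of widest spread, the mean deviation from the group mean was -0.35, 0.12, -0.20 and 0.42 in bleomycin libraries 1 to 4, 0.031, 0.026, -0.034 and -0.023 in doxorubicin, 0.38, 0.00011, -0.33 and -0.046 in IL-1β and 0.051, 0.31, -0.45 and 0.087 in vehicle. Bleomycin library 4 and IL-1β library 1 were high, and vehicle library 3, bleomycin library 1 and IL-1β library 3 were low. Over the 1297 genes in the tenth with the lowest transcript GC content, the median deviation was 0.12 in bleomycin library 4, 0.092 in IL-1β library 1, -0.10 in vehicle library 3, -0.035 in bleomycin library 1 and -0.13 in IL-1β library 3. Over all genes tested it was between -0.021 and 0.020 in every library. Over the 2486 tested genes with transcripts of at least 5000 bases it was 0.060 in bleomycin library 4, 0.030 in IL-1β library 1, -0.047 in vehicle library 3, -0.011 in bleomycin library 1 and -0.092 in IL-1β library 3. The transcripts of Kif20b, Smc2 and Smc4 have 39.4% to 40.2% GC and are among the low-GC genes above, while those of Cenpe (42.9%), Mki67 (46.6%) and Foxm1 (54.6%) are not. Also among the low-GC genes are Ncapg (34.8%), Mad2l1 (40.1%), Ect2 (40.2%) and Bub1 (41%), with an SD of 0.17, 0.15, 0.13 and 0.16. Mki67, Cenpe, Kif20b and Smc2 have transcripts of at least 5000 bases, as do Cenpf (SD 0.22), Mad2l1 (0.15) and Espl1 (0.15). The part of GC content or length in this spread was not tested. The 6 genes were picked for their spread, so these deviations are a description.

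Other genes of the same pathways were called less uniformly. Of all genes tested, 19.0% were called lower and 27.9% higher in bleomycin, 22.8% and 25.4% in doxorubicin, and 18.4% and 24.5% in IL-1β. Of 39 further spindle, centrosome and cytokinesis genes, 29 were called lower and 1 higher in bleomycin, 32 and 2 in doxorubicin, and 10 and 2 in IL-1β. The kinesin gene Kif22 gave -0.88 ± 0.093 in bleomycin and -1.44 ± 0.093 in doxorubicin, Troap -0.92 ± 0.13 and -1.33 ± 0.13, and Melk, a kinase gene, -1.30 ± 0.12 in doxorubicin. Psrc1, a spindle protein gene and p53 target, went the other way, at 0.84 ± 0.089 in bleomycin, 0.85 ± 0.089 in doxorubicin and 0.63 ± 0.089 in IL-1β, all called. Of 35 further kinetochore and centromere genes, 25 were called lower and 1 higher in bleomycin, 28 and 2 in doxorubicin, and 6 and 2 in IL-1β. The most negative called in doxorubicin were Cenpp (-1.36 ± 0.11), Sgo1 (shugoshin, which protects centromeric cohesion, -1.32 ± 0.089) and Ska1 (-1.29 ± 0.11), and in bleomycin Cenpn (-0.92 ± 0.11). Of 17 further condensin, cohesin and chromosome structure genes, 10 were called lower and 0 higher in each drug group, and 3 and 0 in IL-1β, a share close to that of all genes, as for the 6 kinetochore genes (limma; at an unadjusted p under 0.05, 0 were higher in any of the 3). Top2a, which encodes topoisomerase II alpha, the target of doxorubicin, gave -0.91 ± 0.10 in bleomycin, -1.50 ± 0.10 in doxorubicin and -0.43 ± 0.10 in IL-1β, all called. On the scale of equal FPKM sums the genes called lower in IL-1β numbered 34 of the 39 spindle, 26 of the 35 kinetochore and 12 of the 17 chromosome structure genes, against 52.4% of all genes tested.

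Among regulators, genes were called in both directions, some of the counts were near the shares of all genes, and the IL-1β counts depend on the scale. With libraries scaled to the same FPKM sum, the genes called lower and higher in IL-1β were 12 and 0 of the 15 entry and G2 checkpoint genes, 17 and 0 of the 22 DREAM, RB and E2F genes, 10 and 1 of the 17 APC/C genes and 8 and 2 of the 14 G1 genes, against 52.4% and 10.0% of all genes tested. Of 15 genes of mitotic entry and the G2 checkpoint, 8 were called lower and 2 higher in bleomycin (19.0% and 27.9% of all genes tested), 10 and 2 in doxorubicin (22.8% and 25.4%), and 3 and 2 in IL-1β (18.4% and 24.5%). The count called lower in IL-1β lay near that share. Cdkn1a, which encodes the CDK inhibitor p21 and is induced by p53, averaged 302 ± 11.2 FPKM in bleomycin, 327 ± 17.9 in doxorubicin, 167 ± 4.92 in IL-1β and 122 ± 4.55 in vehicle (SD, n = 4 libraries each). Its log2 differences from vehicle were 1.30 ± 0.049, 1.42 ± 0.049 and 0.46 ± 0.049 for bleomycin, doxorubicin and IL-1β, all called, the last not on the scale of equal FPKM sums (0.087, adjusted p = 0.155). Trp53, the p53 gene, was called lower in bleomycin (-0.46 ± 0.047) and doxorubicin (-0.32 ± 0.047) and higher in IL-1β (0.19 ± 0.047), where the sign turned on the scale of equal FPKM sums (-0.17, adjusted p = 0.00516). Chek1, the G2 checkpoint kinase gene, was lower in bleomycin (-0.63 ± 0.13), and Bora, which helps Aurora A activate Polo-like kinase 1, was lower in doxorubicin (-1.0 ± 0.12), both called.

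Of 22 DREAM, RB and E2F genes, 8 were called lower and 5 higher in bleomycin (19.0% and 27.9% of all genes tested), 9 and 2 in doxorubicin (22.8% and 25.4%), and 8 and 1 in IL-1β (18.4% and 24.5%). The count called higher in bleomycin lay near that share. Mybl2, which encodes the B-MYB activator of G2/M genes, gave -0.82 ± 0.12 in bleomycin, -1.05 ± 0.12 in doxorubicin and -0.39 ± 0.12 in IL-1β, all called. The repressor E2F genes E2f7 and E2f8 gave -0.84 ± 0.11 and -0.80 ± 0.09 in bleomycin, -1.11 ± 0.11 and -1.26 ± 0.09 in doxorubicin, and -0.60 ± 0.11 and -0.99 ± 0.09 in IL-1β, all called. E2f1, an activator E2F, was called higher in bleomycin (0.30 ± 0.054) and lower in IL-1β (-0.26 ± 0.054), and it did not pass in doxorubicin (-0.096 ± 0.054, adjusted p = 0.162). Rbl2, which encodes the p130 pocket protein of DREAM, was called higher in bleomycin (0.79 ± 0.11) and doxorubicin (0.71 ± 0.11) and did not pass in IL-1β (-0.021 ± 0.11, adjusted p = 0.895), where it was called lower on the scale of equal FPKM sums (-0.33, adjusted p = 0.0119). Rb1, the retinoblastoma gene, was called higher in bleomycin (0.57 ± 0.092), doxorubicin (0.56 ± 0.092) and IL-1β (0.32 ± 0.092), the last not on the scale of equal FPKM sums (0.027, adjusted p = 0.833). Rbl2 and Rb1 thus stood above vehicle in both drug groups while Mybl2 stood below it.

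The APC/C list of 17 genes had 8 called lower and 3 higher in bleomycin (19.0% and 27.9% of all genes tested), 7 and 2 in doxorubicin (22.8% and 25.4%), and 4 and 5 in IL-1β (18.4% and 24.5%). The IL-1β counts lay near the shares of all genes. The higher calls in the drug groups, those of Anapc2, Anapc7 and Anapc13 in bleomycin and of Anapc2 and Anapc13 in doxorubicin, were lost under median-of-ratios scaling. Ube2s, the APC/C enzyme that extends ubiquitin chains, gave -0.77 ± 0.17 in bleomycin and -0.93 ± 0.17 in doxorubicin, and Fbxo5, the APC/C inhibitor EMI1, -0.58 ± 0.11 and -1.11 ± 0.11, all called. The 14 G1 cyclins, their kinases and CDK inhibitors had 3 called lower and 6 higher in bleomycin, 6 and 3 in doxorubicin, and 4 and 4 in IL-1β. Of these, the counts called lower in bleomycin and higher in doxorubicin and in IL-1β lay near the shares of all genes. Ccnd1, the cyclin D1 gene of G1, averaged 136 ± 7.01 FPKM in bleomycin, 159 ± 17.7 in doxorubicin, 22.6 ± 2.42 in IL-1β and 51.1 ± 5.11 in vehicle (SD, n = 4 libraries each). It was thus high in both drug groups and low in IL-1β, with log2 differences of 1.40 ± 0.091, 1.62 ± 0.091 and -1.14 ± 0.091, all called. Ccne2, a cyclin E gene of S phase entry, gave -0.53 ± 0.14 in bleomycin and -1.28 ± 0.14 in doxorubicin, both called.

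**Figure D5:**
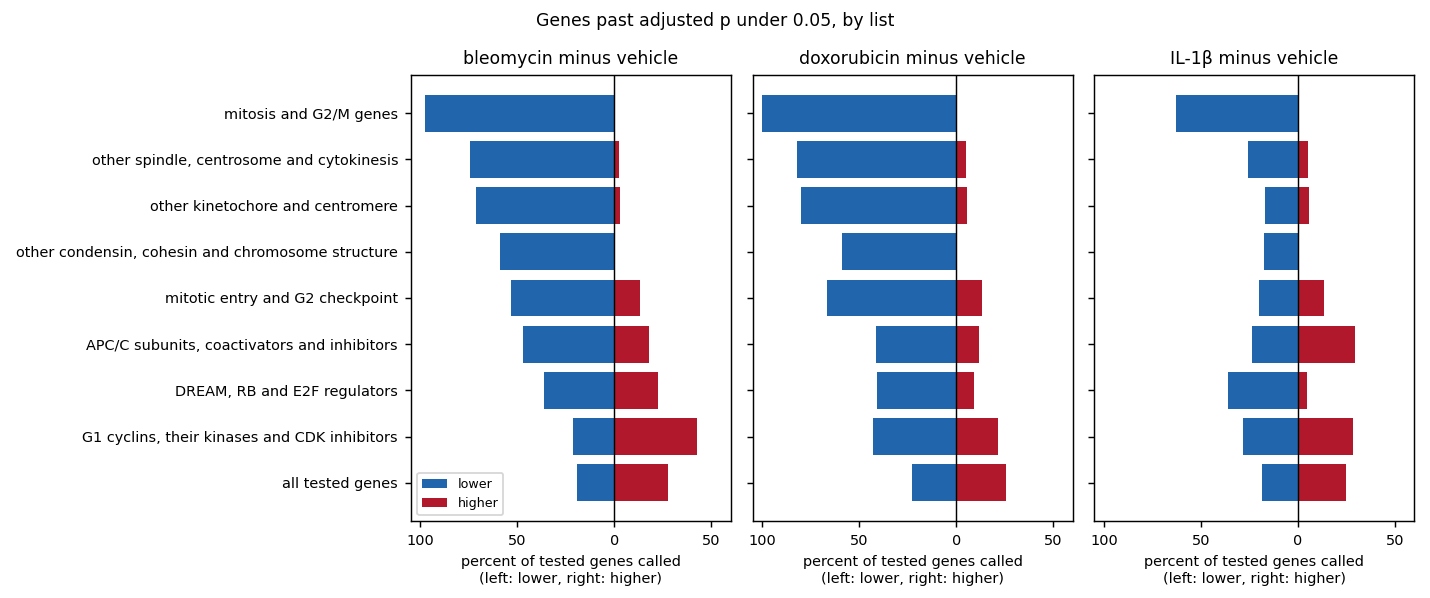
Bars give the percent of the tested genes of each list called lower (left) and higher (right) than vehicle in bleomycin, doxorubicin and IL-1β. The 46 genes head each panel with 45, 46 and 29 called lower and 0 higher, the spindle and kinetochore lists follow, and all 12976 genes tested are at the foot with more called higher than lower as deposited. Under median-of-ratios scaling and quantile normalization more of all genes tested were called lower than higher in every panel, as in IL-1β on the scale of equal FPKM sums.

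Exons of 8 of the 46 genes overlap a gene on the opposite strand that had expression in these libraries: Ccna2 (Exosc9), Cdc20 (Elovl1), Cdca8 (9930104L06Rik), Kif20a (Cdc23, with 1271 shared bases), Kif4 (Pdzd11), Nusap1 (Oip5), Prc1 (Rccd1) and Ncapg (Lcorl). The library kit keeps strand, and the sources used here do not say whether the counting used it, so reads of these partners may be included. Of the processed copies, Ccnb1-ps averaged 0.774 FPKM, Ccnb2-ps 0.127 and Kif4-ps 0, so reads of Ccnb1 and Ccnb2 may be shared with a near-identical copy.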

How the data were processed

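Poly(A) RNA of 16 chondrocyte libraries was sequenced from TruSeq stranded libraries, per the labels' protocols. The authors deposited 1 table per library with FPKM values, which divide fragments by transcript length and by sequencing depth. Trimmomatic trimming and STAR alignment to GRCm38 came before, per the submitters' processing notes. The tool that computed FPKM was not given in the sources used here. Sampling depth was estimated at 15.9 M to 22.1 M fragments per library from the steps between low FPKM values. Only 59.9% to 64.3% of those values came out whole within 0.1, so counts were not recovered and no count model was run.

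The 12976 genes that reached 1 FPKM in 4 or more of the 16 libraries were tested on log2(FPKM + 1) with limma 3.58.1 in R 4.3.3 (moderated test with an intensity trend, 16 libraries in 1 fit, no block). A fold on this scale understates the change of low genes. Benjamini-Hochberg adjustment of p-values ran over all genes tested, in each of 5 comparisons separately, and a gene was called at an adjusted p under 0.05. Fold values in the text are ratios of mean FPKM. The script was tested on simulated data. All 55450 genes had 1 row per table, and 55104 of the identifiers were matched to GENCODE M21, which gave coordinates.

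The 46 members and the other lists were chosen with earlier results of these data known. Values in every library are given for the 2 members of highest mean FPKM in each role, for Ccnb1, Cdk1, Foxm1 and Mki67, for the members with the largest and smallest differences and for those not called in a drug comparison. Bub1b was added after its values were seen. Of the other lists, up to 3 genes with the largest called differences may be named, with Cdkn1a, Trp53, Rb1, Rbl2, E2f1, Mybl2 and Top2a. Alternatives were another pseudocount, other filters, 3 other scalings, a replicate block, fits of the compared groups only and leaving out each library.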

Additional observations from a re-analysis of the deposited data

Results flagged for a closer look

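In each group of 4 libraries the value of every gene, and of the median of the 46 genes, was checked for 1 library standing apart from the other 3 (the gap to the nearest library over the whole range above Dixon's 95% critical value). Of 188 sets of 4 values, 10 did. At 1 in 20, 9.4 would be expected by chance if the sets were independent. They are not, since the genes were measured in the same libraries, so that number cannot show whether the 10 arose by chance. In vehicle library 3 the members lay low together, with a mean log2 deviation of -0.45 for the 6 genes of widest spread and -0.19 for the others. In vehicle library 3, the values were low for Aurka (14.5 FPKM, with 18.7 to 19.5 in the other vehicle libraries), Ube2c (53.3, with 57.2 to 58.0), Bub1b (12.8, with 16.9 to 17.7), Ndc80 (8.31, with 12.2 to 12.5), Nuf2 (13.9, with 18.3 to 19.0) and Kif11 (8.44, with 10.7 to 11.1). In vehicle library 1, Spc24 was high at 11.9 FPKM, with 9.87 to 10.2 in the others. Incenp was low in doxorubicin library 3, at 5.85 FPKM, with 7.37 to 7.49 in the others. Tpx2 was low in IL-1β library 3, at 17.3 FPKM, with 19.8 to 20.3 in the others. The median of the 46 genes was high in bleomycin library 1, at 9.24 FPKM, with 8.22 to 8.36 in the others. Without vehicle library 3, the median log2 difference of the 46 genes was -1.39 for doxorubicin, -0.82 for bleomycin and -0.34 for IL-1β.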

How the results depend on the processing

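Against vehicle, each of the 46 genes kept its direction in bleomycin and in doxorubicin under every alternative run, with 43 to 46 called lower in each (43 genes were left to test with a filter of 3 FPKM). Between the drugs 31 to 37 were called lower, and only Kif20b, Cenpe and Smc4, none of them called, changed sign under any alternative. Cenpf, not called in bleomycin as reported, was called with a replicate block (adjusted p = 0.0485) and after quantile normalization (-0.53, adjusted p = 0.00541). With a pseudocount of 0.1 FPKM the median difference was -1.45 for doxorubicin minus vehicle, -0.64 for doxorubicin minus bleomycin and -0.89 for the mean of both drugs minus IL-1β. On the scale of equal FPKM sums it was -0.62 for IL-1β minus vehicle and -0.46 for both drugs minus IL-1β. There Pttg1 turned to -0.22 in IL-1β minus vehicle, and Spc25 to 0.080, Kif20a to 0.079, Dlgap5 to 0.020 and Anln to 0.065 in both drugs minus IL-1β; on that scale all genes tested moved to 0.31 in the last comparison, and 11.6% were called lower and 59.2% higher. In IL-1β minus vehicle, Cenpa, Cenpe, Smc2, Smc4 and Mki67, none called, also turned negative on that scale, as did Smc2 with the other scalings. Leaving out 1 library at a time gave medians of -0.82 to -0.73 (bleomycin), -1.39 to -1.27 (doxorubicin), -0.34 to -0.26 (IL-1β), -0.57 to -0.49 (doxorubicin minus bleomycin) and -0.83 to -0.77 (both drugs minus IL-1β), with 43 to 46, 44 to 46, 24 to 32, 31 to 37 and 45 to 46 genes called lower and 0 to 2 called higher in IL-1β.

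The labels number the libraries of each group 1 to 4. Deviations of same-numbered libraries had a median correlation over genes of 0.05 (24 pairs, -0.02 to 0.21), against -0.02 for other pairs. The numbers were therefore not taken to pair the libraries. However, 13 of 16 libraries correlated best with their own number, a hint of pairing from the data and not from the design. Members outside the 6 of widest spread gave a mean log2 deviation that was highest in library 1 and lowest in library 3 of every group. In the order bleomycin, doxorubicin, IL-1β and vehicle it was 0.056, 0.085, 0.076 and 0.096 in library 1 and -0.076, -0.076, -0.093 and -0.19 in library 3. Whether the numbers mark shared cultures cannot be told from the labels. With a replicate block, 1 gene was called higher in IL-1β (Cenpa, 0.26, adjusted p = 0.0458) and 31 lower. The block also called Hmmr lower between the drugs (adjusted p = 0.0489) and Foxm1 lower in the mean of both drugs than in IL-1β (adjusted p = 0.0420). No call of a member ended with the block in any comparison. Without the filter on low values, 23 genes were called lower in IL-1β, and with only the compared groups in the fit 25. The first also ended the drug calls of Kif20b (adjusted p = 0.0780 in bleomycin and 0.0848 in doxorubicin), that of Cenpf in doxorubicin (0.0537) and, between the drugs, those of Foxm1, Ube2c, Espl1 and Nusap1 (0.0759 to 0.101); the second ended that of Kif20b in bleomycin (0.0625). Between the drugs, the call of Nusap1 also ended under all 3 scalings (adjusted p 0.0544 to 0.0715), that of Ube2c under 2 of them and that of Foxm1 under median-of-ratios scaling. The causes of these changes were not tested. FPKM without counts limits what can be said of low genes: Cenpf, Cenpe, Kif20b and Mki67 were under 1 FPKM in at least 1 library.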
